A study of Homo sapiens with 2 samples.

Results

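FGFRL1, the FGF receptor family member that lacks a kinase domain, is described here with the 4 kinase receptors FGFR1 to FGFR4, the ligand FGF2, its carrier FGFBP1 and the adaptors FRS2 and FRS3, in cells transfected with miR-210. The members were the probes whose gene symbol on the platform, brought to its current name, was one of these 9 genes. All 9 were on the array, with 11 probes of the 24267 deposited, and they make up 9 of the 12405 named genes measured. FGFR1 and FGFR2 had 2 probes each and every other member had 1. The study compared 2 transfections of KYSE-170, a human oesophageal squamous carcinoma cell line, and each was read on 1 single-colour oligonucleotide array (Toray). The cells had received an oligoribonucleotide for miR-210 or one called ncRNA, whose sequence the labels do not give. Both cultures shared the cell line, the transfection reagent and the amount of total RNA labelled with Cy5, 500 ng. The labels give neither the dose of the oligoribonucleotides nor the time from transfection to extraction, and no value used here measures miR-210 itself. With 1 array per transfection, every value below is a single measurement of a single culture and no p-value can be given.

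FGF receptors are receptor tyrosine kinases that bind FGF ligands together with heparan sulphate on the cell surface. On binding they pair, phosphorylate each other and then phosphorylate the membrane-bound docking proteins FRS2 and FRS3, from which the RAS and ERK cascade is started. FGFRL1 has the extracellular ligand-binding domains of the family but no kinase, and it is known for its need in diaphragm and kidney development in the mouse. In squamous epithelium FGF signalling supports proliferation, and FGFBP1 is a secreted carrier that releases FGF2 from the matrix. MicroRNAs lower the stability and translation of transcripts that pair with their seed, bases 2 to 8 from the 5′ end. FGFRL1 is the target of miR-210 that this study is known for, and it may have been chosen on these arrays, so its place among all genes is given as a description.

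The sequences of the transfected microRNA matter here because its seed is the part that selects targets. They are printed 5′ to 3′ from RefSeq (GRCh38.p14), with the seed in capitals.
hsa-miR-210-3p: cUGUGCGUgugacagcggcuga
hsa-miR-210-5p: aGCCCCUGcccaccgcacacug
Both arms come from the MIR210 hairpin on the minus strand of chromosome 11, the 3p arm at chr11:568112-568133 and the 5p arm at chr11:568150-568171. The labels do not name the arm, and the name miR-210 has long stood for the 3p arm. No other human mature microRNA among the 2370 in the RefSeq table shares either seed. A transcript site for the 3p seed would read ACGCACA, and transcript sequences were not analysed here.

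The deposited values are intensities on a linear scale with a median of 36 on the miR-210 array and 39 on the ncRNA array. To show where dim probes lie, 71 probes of genes restricted to other tissues, such as liver, muscle, pituitary and testis genes, were read on the same arrays. Their median was 17 on the miR-210 array and 19 on the ncRNA array, their 75th percentile was 26 and 27.5, and their 90th percentile was 57 and 76. Of the squamous epithelial marker probes, 11 of 14 lay above the array median on both arrays, against 3 of 10 fibroblast, 2 of 8 endothelial and 1 of 10 leukocyte marker probes. Log2 ratios are miR-210 over ncRNA after quantile normalization. A gene was kept if the mean of its 2 normalised log2 levels was no lower than the median such mean of all probes, which corresponds to an intensity of 37.5, and 6684 genes met this. All 9 members passed through their brighter probe, and the dimmer probes of FGFR1 and FGFR2 did not. FGFRL1 and FGF2 reached the filter level on the ncRNA array alone and FGFR3 and FRS3 on the miR-210 array alone, in each case the array where the gene read higher. Counts over the members below are therefore descriptions.

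FGFRL1 read 21 on the miR-210 array and 277 on the ncRNA array. The miR-210 value lay below that array's median, inside the range of the tissue-restricted probes, where 31 of 71 read as high or higher. The ncRNA value was far above both marks, and 1 of the 71 tissue-restricted probes was as high there. FGFRL1 was 12.4-fold lower with miR-210 (log2 ratio -3.63) and ranked first from the low end of the 6684 genes kept, a size and a rank that rest on the dim value of 21. The only error these arrays hold is the disagreement between probes of a gene, which had a SD of 0.44 on the log2 scale over 251 genes with 2 or more kept probes. That SD leaves out differences between cultures, extractions and arrays, and FGFRL1 had a single probe, so no second probe checks it. Since RNA was taken from the whole culture, fewer cells with the transcript and less transcript per cell cannot be told apart.

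The size of the FGFRL1 difference depended on how its dim value was read. An offset or a floor under 277 cannot reverse the order of 21 and 277, so these settings did not test the direction. FGFRL1 was 13.2-fold lower on the deposited scale, 8.77-fold lower with an offset of 10 added to every value and 4.42-fold lower with an offset of 50. The floors were put on the deposited intensities, with no normalization between the arrays. Where every intensity was raised to at least 27.5, the 75th percentile of the tissue-restricted probes on the ncRNA array, FGFRL1 was 10.1-fold lower. With the floor at 76, their 90th percentile on that array, it was 3.64-fold lower, a log2 ratio of -1.87, and it ranked 21 from the low end of the same 6684 genes in place of first.

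**Figure D1:**
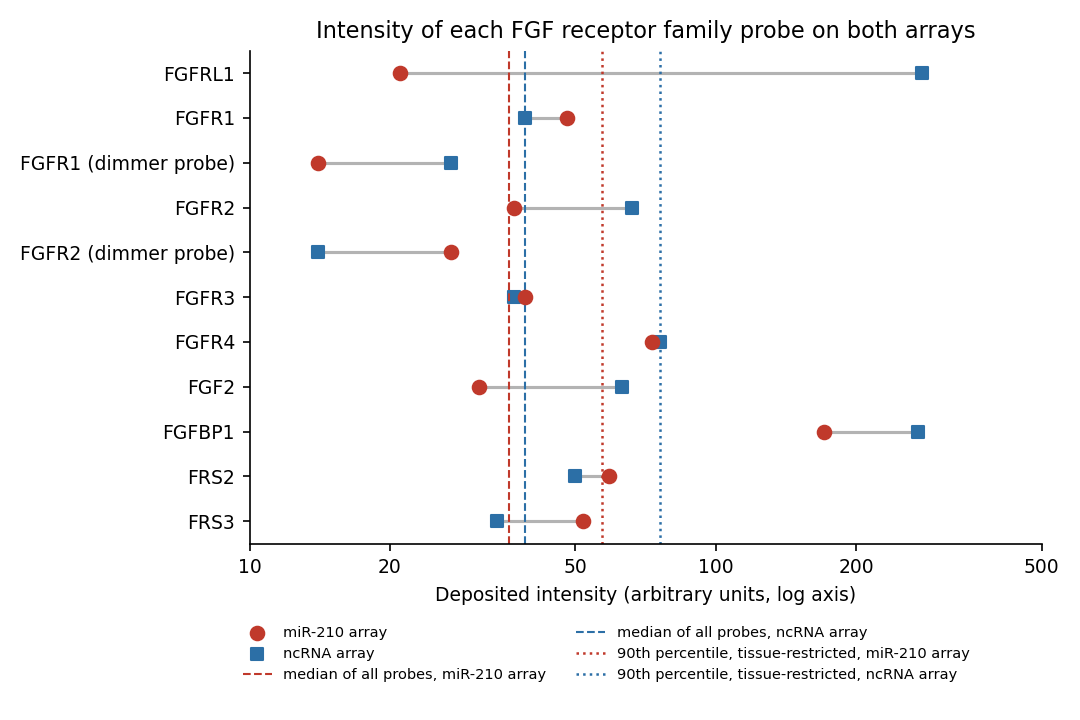
Deposited intensity (log axis, arbitrary units) of each of the 11 member probes, with circles for the miR-210 array and squares for the ncRNA array, 1 array each. Dashed lines mark each array's median and dotted lines the 90th percentile of tissue-restricted probes. FGFRL1 spans 21 to 277, FGFBP1 lies above all lines on both arrays, and no probe of FGFR1 to FGFR4, FRS2 or FRS3 exceeds 76.

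Genes that were as bright as FGFRL1 on the ncRNA array were rarely dim on the miR-210 array. This comparison was chosen after the values were seen. Of 2297 named genes with an ncRNA intensity from 0.5 to 2 times that of FGFRL1 (138.5 to 554), the median intensity on the miR-210 array was 242 and the 5th percentile was 100. FGFRL1 and INPP5A, an inositol polyphosphate 5-phosphatase, were the 2 of these that lay at or under the miR-210 array's median of 36. INPP5A read 32 on the miR-210 array and 146 on the ncRNA array. FGFRL1 is in this count by construction, since the window was centred on its ncRNA value and its miR-210 value was known. The count also hangs on the limit, as THBS1 in the same window read 37 and AAK1 read 43 on the miR-210 array.

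**Figure D2:**
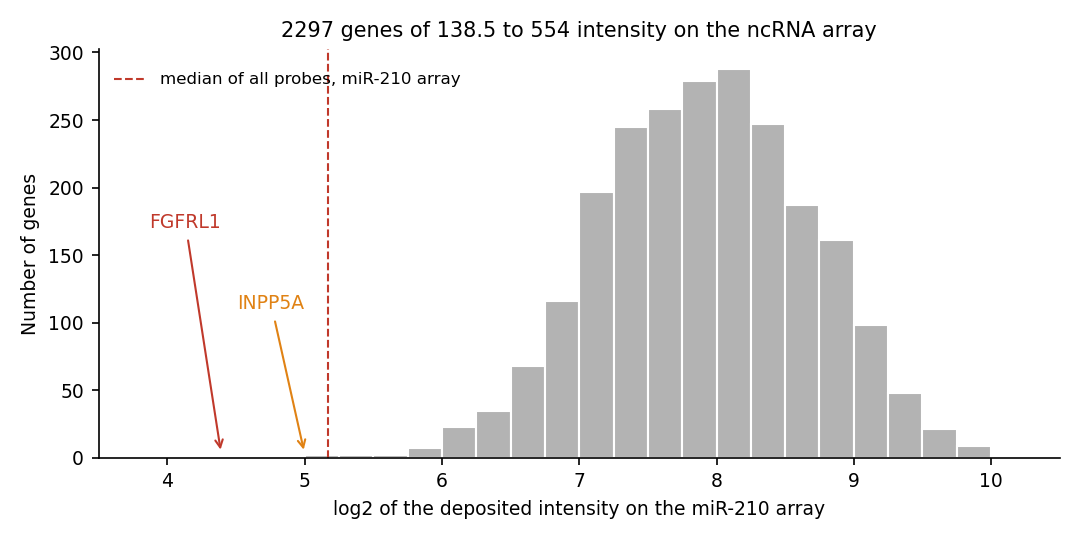
Number of genes by log2 of the deposited miR-210 array intensity, among the 2297 genes whose ncRNA intensity was 138.5 to 554. The dashed line is the miR-210 array's median of 36, and arrows mark FGFRL1 (21) and INPP5A (32), the 2 genes at or under it.

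The kept genes nearest to FGFRL1 in their pair of normalised log2 levels, by Euclidean distance over the 2 arrays, were THBS1, AAK1, INPP5A, PLAC8 and MTMR9. THBS1, a matricellular glycoprotein gene, was nearest at a distance of 0.94, with intensities of 37 on the miR-210 array and 206 on the ncRNA array. AAK1, a kinase of clathrin adaptors, read 43 on the miR-210 array and 221 on the ncRNA array. PLAC8 read 17 on the miR-210 array and 121 on the ncRNA array, and MTMR9, a myotubularin family gene, read 33 and 132 in that order. Their log2 ratios lay between -2.78 for PLAC8 and -1.91 for MTMR9. All 5 had a miR-210 value at or under the 90th percentile of the tissue-restricted probes on that array, as FGFRL1 had. The low miR-210 values and negative ratios follow from choosing genes near FGFRL1 in these same levels. With 2 arrays the likeness rests on 2 values per gene.

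The 4 kinase receptors were dim on both arrays. None was at least 2-fold apart at its brighter probe, beside 6.21% of all genes kept. With a share that low, a count of none among 4 genes does not set the receptors apart from other genes. FGFR4 read 73 on the miR-210 array and 76 on the ncRNA array, a log2 ratio of 0.06. Its miR-210 value was above the 90th percentile of the tissue-restricted probes on that array, and its ncRNA value equalled theirs. FGFR3 read 39 on the miR-210 array and 37 on the ncRNA array, a log2 ratio of 0.17, within 3 units of both array medians.

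FGFR2, whose epithelial splice form binds FGF7 and FGF10, gave opposite answers at its 2 probes. The brighter probe read 37 on the miR-210 array and 66 on the ncRNA array, a log2 ratio of -0.72. The dimmer read 27 on the miR-210 array and 14 on the ncRNA array, a log2 ratio of 0.97. FGFR1 was likewise split, in the other order. Its brighter probe read 48 on the miR-210 array and 39 on the ncRNA array, a log2 ratio of 0.40, and its dimmer probe read 14 on the miR-210 array and 27 on the ncRNA array, a log2 ratio of -0.92. The probes of each gene were thus 1.70 apart for FGFR2 and 1.32 apart for FGFR1 on the log2 scale, and the mean over both was 0.13 for FGFR2 and -0.26 for FGFR1. Among 769 genes with 2 or more named probes at any level, the 2 brightest had opposite signs in 43.2%, and they were at least 1 log2 unit apart in 188. Neither FGFR1 nor FGFR2 therefore has a direction in these data. The position of the probes in their transcripts, and hence the splice form each detects, is not given in the sources used here.

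FGF2, a ligand of the FGF receptors, read 31 on the miR-210 array and 63 on the ncRNA array, which is 1.91-fold lower (log2 ratio -0.93). It passed the level filter through its ncRNA value alone. Its miR-210 value was under that array's median of 36, and its ncRNA value was under the 90th percentile of tissue-restricted probes. On the deposited scale FGF2 was 2.03-fold lower, which passes 2-fold, and with an offset of 50 its log2 ratio was -0.44. FGFBP1, the carrier, was the one member well above every background mark on both arrays. It read 171 on the miR-210 array and 272 on the ncRNA array, which is 1.47-fold lower (log2 ratio -0.55). That is 1.26 times the spread between probes, and over the 9 settings run for it the log2 ratio stayed between -0.67 and -0.45. Among the kept genes above the 75th percentile of level, where FGFBP1 lies, 31.2% were further from 0 than the spread between probes.

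The adaptors read slightly higher with miR-210, from dim values. FRS3, the docking protein best known from neural tissue, read 52 on the miR-210 array and 34 on the ncRNA array, a log2 ratio of 0.71 or 1.64-fold higher. Its ncRNA value was under the array median, so it passed the level filter through the miR-210 array alone. FRS2, the widely expressed docking protein, read 59 on the miR-210 array and 50 on the ncRNA array, a log2 ratio of 0.33, which is under the spread between probes. With the floor at 76 the log2 ratios of both adaptors were 0, because neither reached that intensity on either array.

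By the array medians, no member was near background on both arrays. FGFRL1 and FGF2 were at or under the median on the miR-210 array alone, and FGFR1, FGFR3 and FRS3 on the ncRNA array alone, counting the brighter probe. By the stricter mark, the 90th percentile of the tissue-restricted probes on each array, FGFR1, FGFR2, FGFR3, FGF2 and FRS3 were near background on both. FGFR4 and FRS2 were at or under it on the ncRNA array alone and FGFRL1 on the miR-210 array alone, which left FGFBP1 as the member above it throughout. The dimmer probes of FGFR1 and FGFR2 were at or under the median on both arrays.

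Among the 9 members, 1 was at least 2-fold lower with miR-210, and the background was 3.19% of the 6684 genes kept, or 3.61% of those kept that lay under the 75th percentile of level, as FGFRL1 does. None was at least 2-fold higher, beside 3.02% of genes kept. The median log2 ratio of the members was 0.06, and 0.11 without FGFRL1, beside 0.007 for all genes kept. Of the members, 5 had a log2 ratio above 0 and 4 under 0, beside 50.2% of kept genes above 0. Further from 0 than the spread between probes were 5 members, counting the brighter probe. Of these FGFRL1, FGF2, FGFR2 and FGFBP1 were lower and FRS3 was higher, though the dimmer FGFR2 probe stood at 0.97. Among the 3217 kept genes under the 75th percentile of level, 38.7% were as far from 0, and of the 7 members other than FGFRL1 in that range 3 were, FGF2, FGFR2 and FRS3, a share near the background. In that range of level the log2 ratios of all genes had a SD of 0.56.

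**Figure D3:**
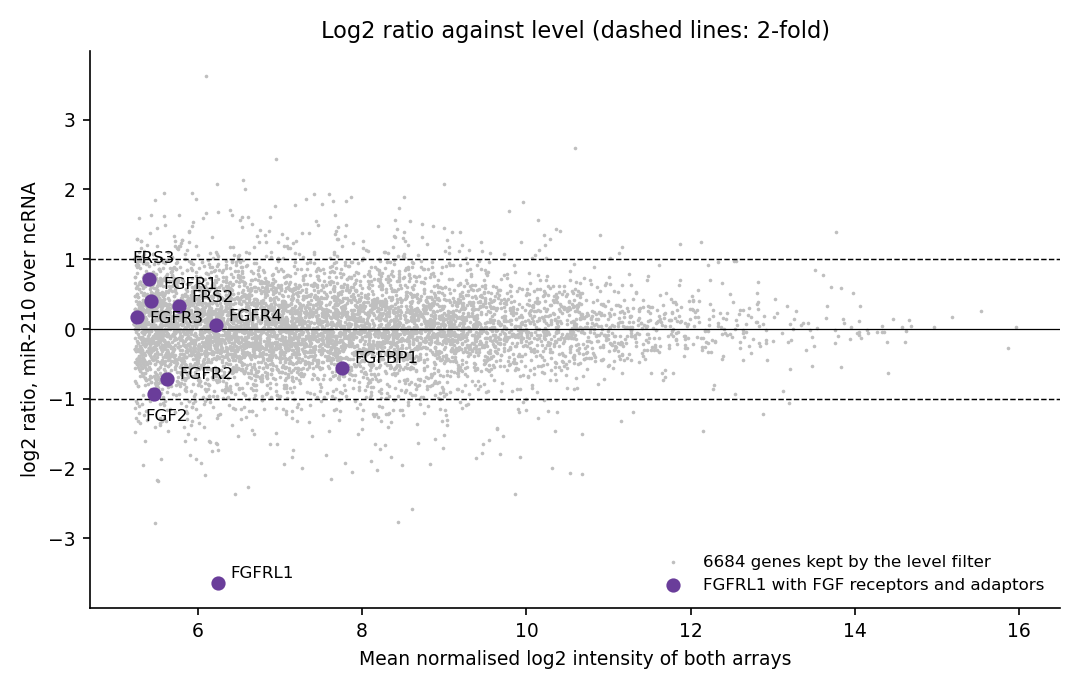
Log2 ratio of miR-210 over ncRNA against the mean normalised log2 intensity of both arrays, for the 6684 genes kept (grey) and the 9 members at their brighter probe (purple). FGFRL1 at -3.63 is the lowest point, and the other 8 members lie between the dashed 2-fold lines, 7 of them at the dim end.

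**Figure D4:**
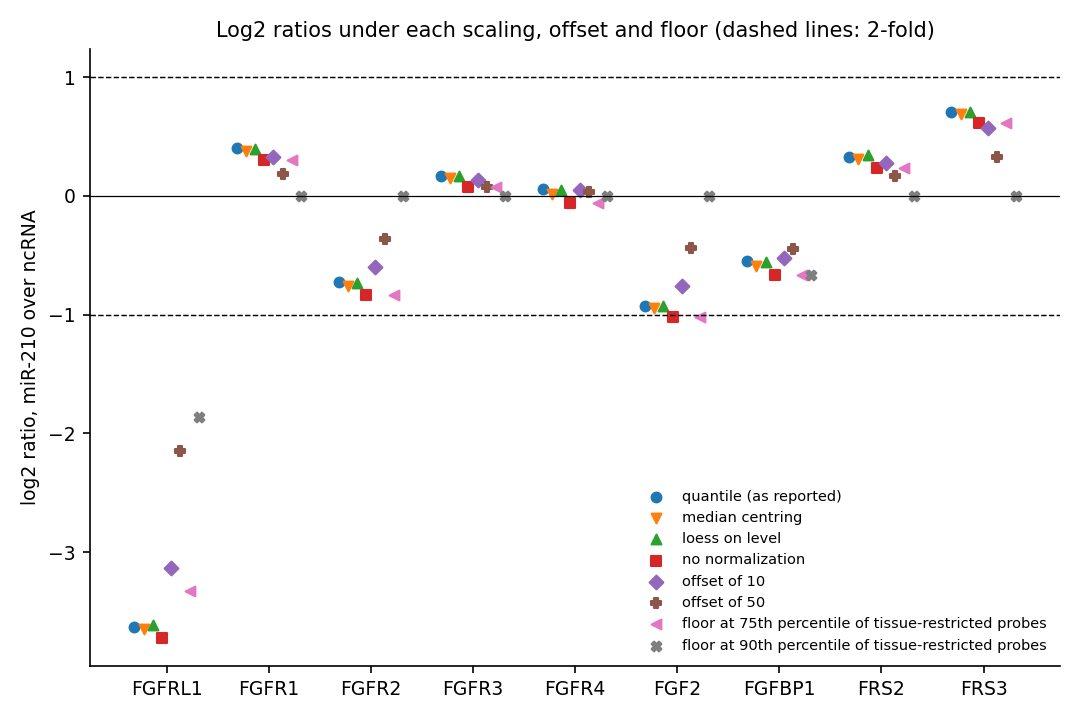
Log2 ratio of each member under 8 scalings, offsets and floors, with 1 marker per setting. FGFRL1 stays beyond the dashed line at -1 in all 8, from -3.72 to -1.87, and all 8 reuse the same pair of intensities. FGF2 crosses it on the deposited scale and with the floor at 27.5, which also used deposited values and left those of FGF2 unchanged. With the floor at 76, 7 members sit at 0.

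The other genes of the pathway were taken from 7 lists, which held 65 kept genes outside the members. At least 2-fold apart were 5 of them, 3 lower and 2 higher, or 7.69% beside 6.21% of all genes kept. The median log2 ratio of the 65 was -0.005. No list was tested as a set.

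Ligands other than FGF2 were almost all dim. Of 17 on the array 2 were kept, FGF19, a ligand of the endocrine subfamily, and FGF9, and their log2 ratios were 0.25 and -0.19. FGF19 read 128 on the miR-210 array and 116 on the ncRNA array, and FGF9 read 41 on the miR-210 array and 50 on the ncRNA array. The 15 dim ligands were not kept. Of these 15, 2 were at least 2-fold lower and 4 at least 2-fold higher, beside 11.3% and 11.7% of all named genes under the level filter. FGF23, named after its values were seen, read 1 on the miR-210 array and 12 on the ncRNA array, a log2 ratio of -3.58, with both values under the median of the tissue-restricted probes. FGFRL1 had a ratio of like size, but its ncRNA value of 277 was far above them. Of 11 co-receptors and FGF binding proteins 4 were kept, with a median log2 ratio of 0.04. None of the 4 was at least 2-fold apart, beside 6.21% of all genes kept. FLRT2, a transmembrane protein that can bind FGF receptors, stood at 0.58, the cadherin CDH2 at 0.10 and the intracellular FGF binding protein FIBP at -0.08. FIBP was bright, with 1138 on the miR-210 array and 1359 on the ncRNA array.

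Heparan sulphate is the co-receptor for most FGF ligands, and 17 of 35 measured carriers and enzymes were kept. Their median log2 ratio was -0.10, with 6 above 0 and 11 under it, beside 48.6% of all genes kept under 0. At least 2-fold lower were 2 of the 17, beside 3.19% of all genes kept. These were both core proteins that carry heparan sulphate chains. The glypican GPC1 read 41 on the miR-210 array and 98 on the ncRNA array, or 2.21-fold lower. The syndecan SDC4 read 198 on the miR-210 array and 466 on the ncRNA array, or 2.17-fold lower. B3GALT6, which builds the linker that joins the chain to its protein, stood at -0.80, with 484 on the miR-210 array and 920 on the ncRNA array. SDC4 and B3GALT6 were well above the background marks on both arrays, and the miR-210 value of GPC1 was not.

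Below the adaptors, 15 of 28 measured signalling genes were kept, with a median log2 ratio of -0.02. STAT3, a transcription factor activated by cytokine and growth factor receptors, was 3.01-fold higher, with 112 on the miR-210 array and 40 on the ncRNA array. Its ncRNA value was 1 unit above that array's median. MAP2K1, the kinase that activates ERK, stood at 0.83, with 445 on the miR-210 array and 272 on the ncRNA array. PIK3CA, a catalytic subunit of phosphoinositide 3-kinase, stood at -0.80, with 96 on the miR-210 array and 181 on the ncRNA array.

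Feedback inhibitors and ERK response genes, which are readouts of signalling below the receptors, were found on both sides of 0. Of 6 kept inhibitors 4 were above 0, beside 50.2% of all genes kept, with a median of 0.22. Over all 9 measured, with no level filter, the median was 0. SPRED2, an inhibitor of RAF activation, was 2.15-fold lower, with 194 on the miR-210 array and 454 on the ncRNA array. SPRY3 stood at -0.87, with 41 on the miR-210 array and 81 on the ncRNA array, and the ERK phosphatase DUSP5 stood at 0.52, with 544 and 410 in that order. Of 14 kept ERK response genes 9 were above 0, beside the same 50.2%, with a median of 0.12. FOS was 2.05-fold higher, with 71 on the miR-210 array and 37 on the ncRNA array, where the ncRNA value was under the array median. VGF stood at -0.90 and IER2 at 0.63.

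Among other receptor tyrosine kinases, 7 of 32 measured were kept. None of the 7 was at least 2-fold apart, beside 6.21% of all genes kept. Their median log2 ratio was -0.04. RYK, a WNT co-receptor with an inactive kinase, read 118 on the miR-210 array and 85 on the ncRNA array, a log2 ratio of 0.59. KDR, a VEGF receptor, read 36 on the miR-210 array and 66 on the ncRNA array, a log2 ratio of -0.76. DDR1, a collagen receptor of epithelial cells, was bright, with 2247 on the miR-210 array and 3016 on the ncRNA array, a log2 ratio of -0.24. Under the level filter were 25 of the 32, beside 46.1% of all named genes.

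**Figure D5:**
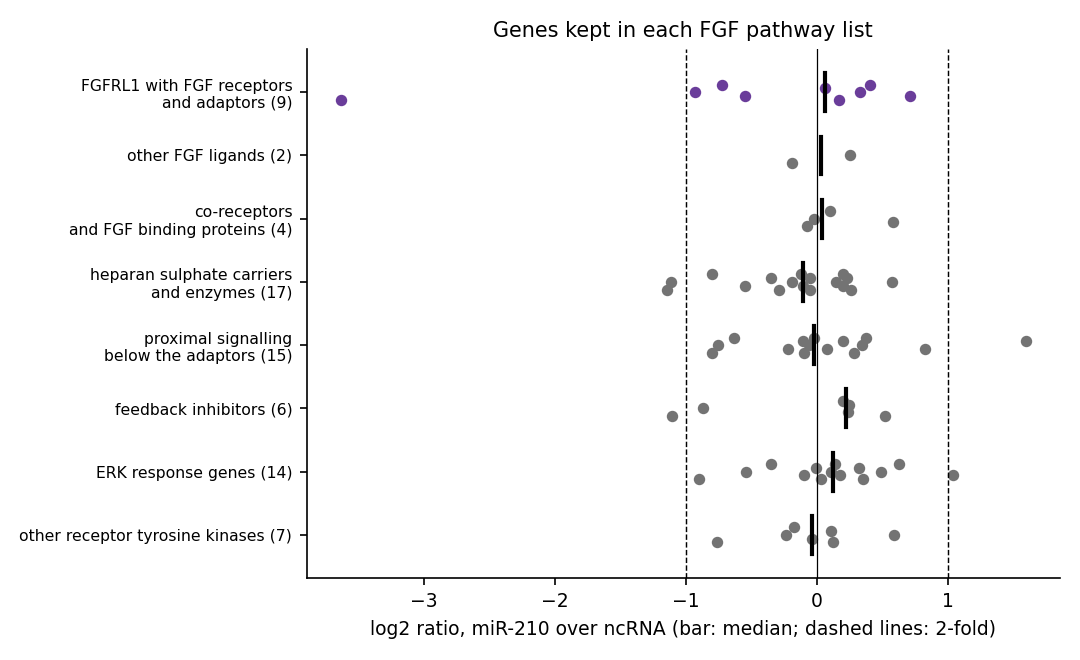
Log2 ratio of miR-210 over ncRNA for each kept gene in the 9 members (purple) and 7 pathway lists (grey), with the number of kept genes in brackets and a bar at each median. Medians lie between -0.10 and 0.22, and FGFRL1 at -3.63 stands apart from every other point.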

How the data were processed

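Total RNA of 2 KYSE-170 cultures was hybridised, 1 array each, per the labels' protocols. The deposited values are probe intensities on a linear scale. This unit was read from the values themselves, which run from -8 to 65496, and since some are under 0 a background was subtracted before deposit. No source used here gives the scanner, the background method or any normalization applied to the deposited intensities. Of 24267 probes, 13395 had 1 gene symbol in the platform annotation and the other 10872 have no name here; 2285 of 12474 symbols were updated through RefSeq synonyms (GRCh38.p14) and 113 matched no current symbol.

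The 24177 probes above 0 on both arrays were taken to log2 and quantile normalized (Python 3.11.15, pandas 2.3.3). The probe with the highest mean level stood for a gene. The number of arrays limits the precision, and no p-value was computed. The scripts were tested on simulated data. All members were named, the 5 kept genes nearest to FGFRL1, and in each pathway list the genes at least 2-fold apart, filled up to 3 by size. The members, lists and rules were chosen with earlier results of these data known. Alternatives covered the scaling, the offset, the level filter, the probe rule and the background mark; the floors at 27.5 and 76 and the median without FGFRL1 were added after the data were seen.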

Additional observations from a re-analysis of the deposited data

How the results depend on the processing

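The log2 ratio of FGFRL1 was under -1 in all 8 settings run for it, all of which reuse its 1 pair of intensities, 21 and 277. Passing 2-fold in each is therefore no independent check. The ratio moved by more than the spread between probes with both offsets and with the floor at 76. It was -3.13 with an offset of 10, -2.15 with an offset of 50 and -1.87 with that floor. The count of members at least 2-fold apart went up to 2, with FGF2 added, on the deposited scale. It was also 2 with the floor at 27.5, which used deposited values and left those of FGF2 unchanged. The count was 0 with genes kept only above the 75th percentile of level, which removes FGFRL1 itself. The number of members near background on both arrays was 0 by the array medians and 5 by the 90th percentile of tissue-restricted probes. Pathway genes at least 2-fold apart numbered 5 as reported, 23 of 151 measured with no level filter (15.2%, beside 13.99% of all named genes at any level), 2 with the filter at the 75th percentile, 3 with an offset of 10 and 0 with an offset of 50. An offset shrinks the ratios of dim probes by construction. The spread between probes was 0.72 with no level filter, in place of 0.44. FGFR4 took both signs across settings, between -0.06 and 0.06, and FGFR1 and FGFR2 changed sign as a mean over their probes. The median of the members was -0.06 on the deposited scale, where 43.1% of named genes were above 0. No paired analysis was possible because each transfection had 1 array. Depth in the sense of counts does not apply, and the dim values of most receptor and adaptor probes limit what can be read from them.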

Other observations

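In the opposite direction to the comparison of genes as bright as FGFRL1, 2265 named genes had a miR-210 array intensity of 138.5 to 554. On the ncRNA array 2 of these lay at or under its median of 39, IL1RL1, the interleukin 33 receptor, at 20 and the cytokine gene IL11 at 38. Both windows were chosen after the values were seen, and no array repeats either transfection.

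In a list of 18 genes reported as miR-210 targets, FGFRL1 included, 15 were on the array and 13 were kept. The 13 had a median log2 ratio of -0.24, with 9 under 0, beside 48.6% of all genes kept. The 2 at least 2-fold lower were FGFRL1 and GPD1L, at -1.21, and the mitochondrial assembly factor COX10 stood at -0.99. Above 0 were 4 of the 13, up to 0.42 for CASP8AP2 and 0.34 for PTPN1, and EFNA3 stood at -0.06. Of all genes kept, 3.19% were at least 2-fold lower. Since the study is known for FGFRL1, these counts are no independent evidence.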
